A study of Triticum turgidum subsp. durum with 96 samples.

Results

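The water deficit response of the Yawa flag leaf was described from small RNA libraries of Yawa, a durum wheat genotype (Triticum turgidum subsp. durum) that the labels call tolerant to water deficit. The comparison holds 12 of the 96 libraries of the series, chosen by their labels as flag leaf of Yawa, and sets 6 water deficit libraries against 6 control libraries. Control plants were kept at field capacity (12% soil water content), and stressed plants were held at 6% soil water content for 15 d from booting, after which the flag leaf, the last leaf below the head, was taken. Every library came from a separate plant, with 3 plants per treatment in each of 2 growing seasons, and libraries are named by season and letter (1-a to 2-c). Leaf and head of a plant carry the same plant number in the labels, and control and stressed plants have different numbers. All plants are of 1 genotype and were sampled at 1 time, so the values describe that genotype at that time. The same letter in the control and the stressed group is taken only as a label.

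MicroRNAs (miRNAs) are small RNAs cut from hairpin precursors. One strand of the cut duplex, the guide, is loaded into an ARGONAUTE protein and directs the cleavage or repression of transcripts with a matching site, and the other strand, the partner, is mostly degraded. In plants, several conserved families control transcription factors of leaf and flower development, and others respond to nutrients. MiR397, miR398, miR408 and, in monocots, miR528 are known for targeting transcripts of copper proteins such as laccases, plantacyanins and superoxide dismutases, and the families shared with Arabidopsis rise there when copper is short.

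Of the deposited tables, the first gives 110 conserved miRNAs in reads per 1000000 library reads (RPM), each named after the plant species whose known sequence it matched (Tae, bread wheat, Hvu, barley, Bdi, Brachypodium, Osa, rice, Zma, maize, Sbi, sorghum, Gma, soybean, Ath, Arabidopsis). The second gives hairpins of candidate wheat miRNAs (Ttu pre-miR) in log2 counts per 1000000 (log2 CPM). The sequences on which the results turn are shown as the tables list them, 5′ to 3′, with bases 2 to 8, the seed, in capitals. The first set is the copper families, which include the miRNAs whose means were highest relative to control.
Tae-miR408: cTGCACTGcctcttccctggc
Gma-miR408d: tGCACTGCctcttccctggc
Bdi-miR397b: aTTGAGTGcagcgttgatgaa
Sbi-miR397: tCACCGGCgctgcactcaatt
Zma-miR528a: tGGAAGGGgcatgcagaggag
Bdi-miR528: cCTGTGCCtgcctcttccatt
Gma-miR408d is the Tae-miR408 sequence started 1 base later, so that the same molecule family is listed with different seeds. Sbi-miR397 and Bdi-miR528 are partner strands.

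The second set holds sequences that were lower in the stressed group, and the third holds forms of miR166 and miR396 that start at different bases.
Zma-miR159a: gAGCTCCTatcattccaatga
Osa-miR444b: tGTTGTCTcaagcttgctgcc
Bdi-miR5054: tCCCCACGgtcggcgcca
Bdi-miR168: cCCGCCTTgcaccaagtgaat
Sbi-miR168: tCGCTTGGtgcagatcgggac
Gma-miR393h: tTCCAAAGggatcgcattgatc
Bdi-miR166f: tCTCGGACcaggcttcattcc
Ath-miR166b: tCGGACCAggcttcattcccc
Osa-miR396f: tCTCCACAggctttcttgaact
Bdi-miR396a: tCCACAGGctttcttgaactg
Zma-miR159a and Bdi-miR168 are partner strands, and Sbi-miR168 is the guide of miR168. Ath-miR166b begins at base 3 of Bdi-miR166f with a shared run of 19 nt, and Bdi-miR396a begins at base 3 of Osa-miR396f with a shared run of 20 nt. The 110 listed sequences hold 78 distinct seeds, and 59 of them have a near-identical listed sequence, so reads may be split or shared between such entries and single members are uncertain to that extent.

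The group means of depth and of total miRNA content did not differ beyond the spread between libraries. The depth read from the steps of the RPM values was 2.70 to 10.2 M reads (1 M is 1000000) in control and 5.45 to 7.29 M reads in water deficit libraries (exact permutation test, two-sided, p = 0.989). The 110 miRNAs summed to 31032 ± 6790 RPM in control and 30086 ± 9101 RPM in water deficit (SD, n = 6 each; exact permutation test, two-sided, p = 0.848). Yawa flag leaf was low in the miRNAs used as head markers and high in those used as leaf markers. Zma-miR319a had a median of 3.29 RPM in control leaf and 191.8 RPM in control head, and Osa-miR1432 had 195.0 RPM in control leaf and 7.79 RPM in control head. These markers had been picked from earlier results of the same data, so this is a description of the labels and no test of them.

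Water deficit libraries 1-a and 2-c, 1 from each season, stood apart from the other 10 and resembled each other. Their mean correlation with the other libraries was 0.884 and 0.870 over the conserved miRNAs, and that of the other 10 libraries ran from 0.914 to 0.95. Library 1-a had 46 of 110 miRNAs below 0.5 of the control mean and library 2-c had 72, while the other water deficit libraries had 2 to 13. Both were of ordinary depth (6.77 and 6.675 M reads), and 2-c had the lowest total at 13510 RPM. Their deviations from the control mean went together over the 110 miRNAs (Pearson r = 0.83, Spearman rho = 0.81, a description across miRNAs that are not independent, and all pairs of libraries share the control mean), and the other 14 pairs of stressed libraries gave r from -0.43 to 0.57. Over the hairpins the same correlation was 0.53. In both libraries 54 miRNAs lay below every control library and 2 lay above (Bdi-miR166f and Ath-miR319b).

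**Figure D1:**
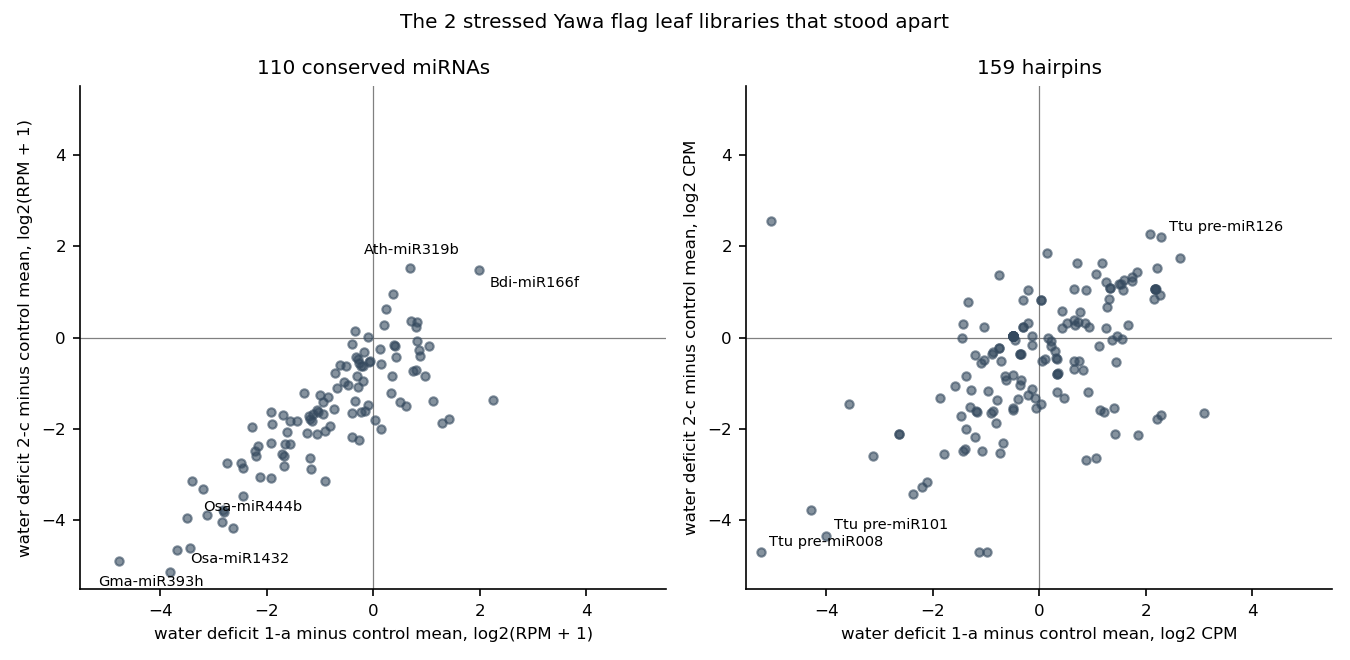
Each point is 1 conserved miRNA (left, log2(RPM + 1)) or 1 hairpin (right, log2 CPM), with its deviation from the control mean of Yawa flag leaf in water deficit library 1-a on the x axis and in 2-c on the y axis. The conserved miRNAs run along the diagonal, mostly below 0 in both libraries (r = 0.83), and the hairpins are more scattered (r = 0.53).

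The low values were uneven, and some miRNAs were almost absent from both libraries. Gma-miR393h, from the family that targets TIR1/AFB auxin receptors, had 0.739 RPM in 1-a and 0.599 RPM in 2-c, from 5 and 4 reads. The other 10 libraries had 20.4 to 77.2 RPM. Osa-miR1432 had 12.4 and 5.84 RPM in these libraries, below the lowest control value of 88.4 RPM, and the other 4 stressed libraries had 177.6 to 474.0 RPM. Both values of Gma-miR393h and both of Osa-miR1432 were also below the lowest of the 36 flag leaf libraries of the other genotypes, 7.79 and 39.4 RPM. Forms of the same family moved unequally. Bdi-miR396a, which targets growth-regulating factors, had 420.4 and 221.1 RPM in 1-a and 2-c, below all controls (1026 to 2351 RPM), while Osa-miR396f, the same sequence started earlier and made longer by 1 nt, had 20.2 and 15.6 RPM beside 7.21 to 15.7 RPM in controls.

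The heads of the same plants shared the pattern. For Gma-miR393h the head had 1.09 RPM in stressed plant 1-a and 0.252 RPM in stressed plant 2-c, and control heads had 12.4 to 67.7 RPM. The deviations of leaf and head of 1 plant correlated over the 110 miRNAs at 0.71 for plant 1-a and 0.80 for plant 2-c, and at 0.06 to 0.43 for the other 4 stressed plants. The head of plant 2-b was also low (0.25 RPM of Gma-miR393h), but its flag leaf was not (20.4 RPM). What set these libraries apart was not tested, and the main results are therefore given with and without them.

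No conserved miRNA was called between water deficit and control in Yawa flag leaf. With limma on log2(RPM + 1) over the 48 flag leaf libraries, 0 of 110 had a Benjamini-Hochberg adjusted p below 0.05 (percent called 0.0), and the lowest was 0.0794. At an unadjusted p below 0.05 there were 15 miRNAs (13.6%), of which 14 were lower (12.7%) and 1, Bdi-miR166f, was higher (0.909%). These p-values take the spread from all 48 flag leaf libraries. With limma on the 12 Yawa flag leaf libraries alone, 2 miRNAs had an unadjusted p below 0.05 and the lowest adjusted p was 0.673. The median change over all 110 was -0.28 on the log2(RPM + 1) scale, with 25 positive and 85 negative values. Without 1-a and 2-c the median was 0.09 with 68 positive values, 1 miRNA had an unadjusted p below 0.05 and the lowest adjusted p was 0.932. Of the 15 miRNAs, 12 lost at least 50% of their change when both libraries were left out. Leaving out 1 library at a time gave 4 calls without stressed 1-b, 5 without 1-c, 6 without 2-a and 1 without control 2-c, and 0 when any of the other 8 was left out. All of these were lower under stress except Bdi-miR166f, which was called without 2-a, and Zma-miR159a was among them in each case. With median-ratio scaling of the libraries the median moved from -0.28 to 0.06 and the signs to 61 positive and 49 negative, so changes near -0.3 on the RPM scale lie near the middle of all miRNAs. With that scaling 17 miRNAs had an unadjusted p below 0.05, 6 higher and 11 lower.

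The stressed plants differed more among themselves than the controls did. The SD of log2(RPM + 1) was larger in the stressed group for 98 of 110 miRNAs, with medians of 0.84 and 0.48. The stressed median SD was 0.48 and the count 57 when 1-a and 2-c were left out. The 95% confidence interval of a change had a median width of 0.74 to either side on the log2 scale. A smaller change in a typical miRNA would thus miss even the unadjusted threshold with these plants. Calls were made on adjusted p, which requires a larger change. Bdi-miR168 at -1.47 (limma adjusted p = 0.101) and Zma-miR159a at -1.13 (limma adjusted p = 0.0794) were not called.

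**Figure D2:**
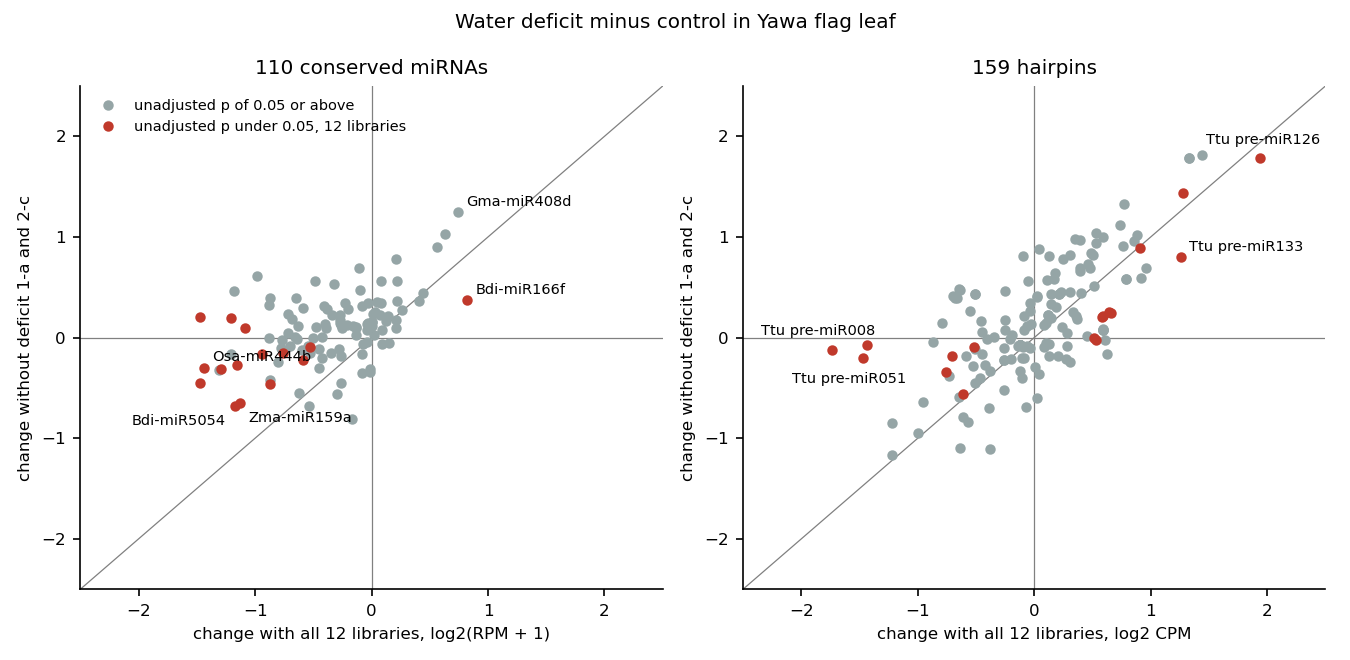
Each point is 1 conserved miRNA (left) or 1 hairpin (right), with the water deficit minus control change from all 12 libraries on the x axis and without stressed libraries 1-a and 2-c on the y axis, both on the log2 scale (the diagonal marks equal values). Most red points, those at an unadjusted p below 0.05 with all 12 libraries, lie closer to 0 on the y axis than on the x axis, and Ttu pre-miR126 stays near the diagonal (1.94 and 1.78).

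The study judged conserved miRNAs by fold criteria without a test, and measured selected ones by quantitative PCR, which is not examined here. A miRNA passes when the ratio of group means is above 1.5 in either direction, with at least 10 RPM in 1 of the groups and 0 set to 0.01. In Yawa flag leaf 17 of 110 passed (15.5%), 6 higher (5.45%) and 11 lower (10.0%). The split depended on the scale: 18 were higher and 9 lower with median-ratio scaling, and 1 higher and 28 lower with geometric means. Without 1-a and 2-c 11 passed (10.0%), 7 higher (6.36%) and 4 lower (3.64%), and 7 miRNAs passed in both cases. With stressed library 1-b or 1-c left out alone the count was 27 and 28. These 7 were Gma-miR408d, Tae-miR408, Bdi-miR397b, Sbi-miR397 and Bdi-miR156h, higher, and Bdi-miR5054 and Osa-miR5077, lower. No conserved miRNA had groups that did not overlap (0 of 110, 0.0%).

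The copper families gave 4 of the 6 miRNAs that were higher by the fold criteria on mean RPM, and in each of them the stressed plants were split. Gma-miR408d, which targets plantacyanin and laccase transcripts, had 50.8, 124.8, 209.9, 250.6, 307.3 and 355.1 RPM in the control libraries. In the stressed libraries it had 449.9 RPM in 1-a, 75.6 in 1-b, 858.6 in 1-c, 1002 in 2-a, 543.1 in 2-b and 49.1 in 2-c. The 4 libraries 1-a, 1-c, 2-a and 2-b were above every control, whereas 1-b was within the control range and 2-c below it. The ratio of means was 2.29, and the log2 change was 0.74 (SE 0.94, 95% interval -1.17 to 2.64, limma adjusted p = 0.744).

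Tae-miR408 was split in the same way at a lower level. It had a lowest, median and highest value of 2.94, 6.66 and 8.89 RPM in control. The stressed values were 18.0, 1.28, 33.8, 33.4, 14.7 and 1.05 RPM from 1-a to 2-c. Again 1-a, 1-c, 2-a and 2-b exceeded every control and 1-b and 2-c fell below every control, with a ratio of means of 2.70 and a log2 change of 0.63 (SE 0.84, limma adjusted p = 0.754). Since Tae-miR408 and Gma-miR408d share all 20 bases of the latter, they do not count as separate evidence.

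Bdi-miR397b, the guide form of the laccase-targeting miR397, had 645.0 to 1134 RPM in control with a median of 771.7 RPM. The stressed libraries had 1746, 458.2, 1709, 2116, 3076 and 305.3 RPM. The same 4 libraries were above all controls and the same pair, 1-b and 2-c, below all of them. The ratio of means was 1.92 with a log2 change of 0.56 (SE 0.70, limma adjusted p = 0.744). Its partner Sbi-miR397 had a control median of 8.18 RPM and a stressed median of 14.0 RPM, a ratio of means of 1.5, and exceeded every control in 1-c, 2-a and 2-b only.

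MiR398 and miR528 did not have higher means. Zma-miR398b, which targets copper/zinc superoxide dismutases, ranged from 205.9 to 1106 RPM in control and from 74.2 to 863.1 RPM under stress, where 1-b and 2-c were below the control range, and the ratio of means was 0.748. Zma-miR528a had 374.6 to 922.6 RPM in control and 191.7, 168.7, 1071, 911.1, 970.3 and 86.9 RPM under stress (ratio 0.869). Its stressed libraries thus formed 2 levels, with 1-a, 1-b and 2-c below every control and 1-c and 2-b above. The partner strand Bdi-miR528 ranged from 7.22 to 68.1 RPM in control and from 0.749 to 44.3 RPM under stress, with a ratio of 0.583 and a log2 change of -1.31 (limma adjusted p = 0.381). None of the 7 copper miRNAs was called, 4 changes were positive and 3 negative, and their median was 0.21 beside -0.28 for all 110 miRNAs. Without 1-a and 2-c their median was 0.78 beside 0.09, the ratios of Gma-miR408d, Tae-miR408 and Bdi-miR397b were 2.86, 3.29 and 2.25, and still 0 were called. With median-ratio scaling it was 0.53 beside 0.06. Library 1-b, in which the copper miRNAs were low, was not among the 2 libraries that stood apart.

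**Figure D3:**
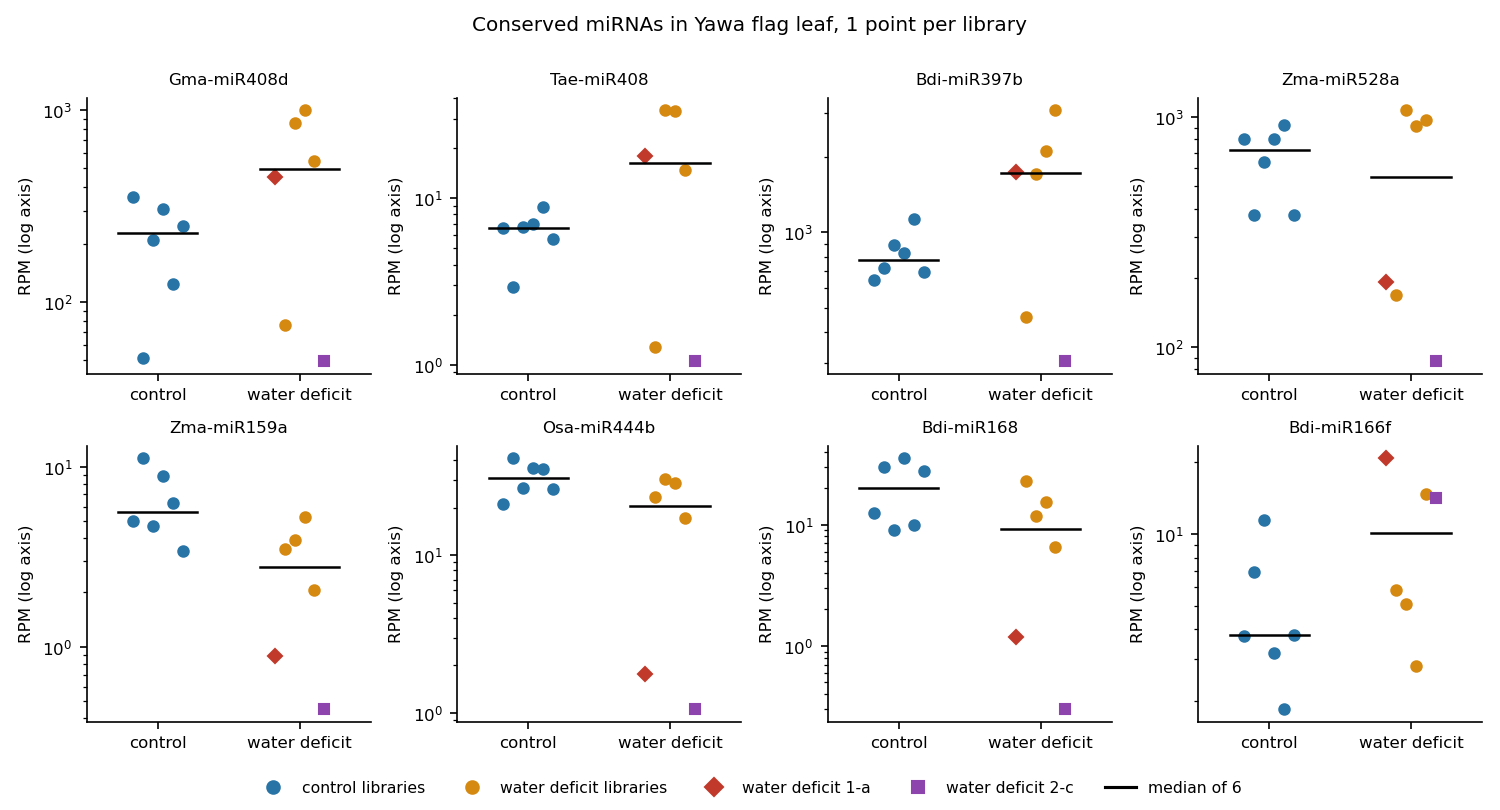
RPM (log axes) of 8 conserved miRNAs in the 6 control and 6 water deficit libraries of Yawa flag leaf, 1 point per library, with lines at the group medians and stressed libraries 1-a (diamond) and 2-c (square) marked. Gma-miR408d, Tae-miR408 and Bdi-miR397b each have 4 stressed libraries above all controls, and for Zma-miR159a, Osa-miR444b and Bdi-miR168 the lowest values are those of 1-a and 2-c.

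The lowest p-values belonged to miRNAs that were lower under stress. Zma-miR159a, a partner strand of miR159 (the guide targets GAMYB transcription factors), had 3.42, 5.63 and 11.1 RPM (lowest, median, highest) in control. Under stress it had 0.886, 3.48, 3.93, 5.27, 2.06 and 0.449 RPM from 1-a to 2-c. Libraries 1-a, 2-b and 2-c were below every control and the other 3 within the control range. The log2 change was -1.13 (SE 0.31, limma adjusted p = 0.0794) and -0.65 without 1-a and 2-c (adjusted p = 0.932). The group means, 6.55 and 2.68 RPM, were below the 10 RPM of the fold criteria, and the stressed values rest on 3 to 30 reads. Bdi-miR159-5p, another listed partner strand, was more abundant (mean 22.1 RPM over the 12 libraries, beside 4.61 RPM). It had a log2 change of -0.53 (SE 0.61), or -0.15 without both. Tae-miR159b, the guide and the most abundant conserved miRNA, had 4214 to 7397 RPM in control and 3386 to 7819 RPM under stress, with a log2 change of -0.13 (SE 0.24).

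Osa-miR444b belongs to a monocot family that targets MADS-box transcripts. It had 21.3, 31.0 and 41.2 RPM (lowest, median, highest) in control. Under stress it had 1.77, 23.5, 30.4, 28.8, 17.3 and 1.05 RPM. Only 1-a, 2-b and 2-c were below the controls, with 1-a and 2-c far below. The log2 change was -1.44 (SE 0.44, limma adjusted p = 0.101) and -0.30 without both. Their 12 and 7 reads were fewer than in any of the other 10 libraries.

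Bdi-miR168, the partner of the miRNA that targets AGO1, showed the same picture. Control libraries had 9.0 to 35.2 RPM and stressed libraries had 1.18, 22.9, 11.8, 15.5, 6.59 and 0.300 RPM, with 1-a, 2-b and 2-c below every control. The ratio of means was 0.468 and the log2 change -1.47 (SE 0.48, limma adjusted p = 0.101), or -0.45 without 1-a and 2-c. The guide Sbi-miR168 had a median of 168.2 RPM in control and 141.2 RPM under stress, a log2 change of -0.43 (SE 0.36), and 0.01 without both.

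Bdi-miR5054, an 18 nt sequence with no role stated here, kept a lower mean without the 2 libraries. It had 12.6, 17.1 and 54.9 RPM (lowest, median, highest) in control and 5.61, 20.4, 14.8, 11.8, 6.59 and 2.70 RPM under stress. Libraries 1-a, 2-a, 2-b and 2-c were below every control, and the highest control, 1-a, stood well above the next control of 25.8 RPM. The ratio of means was 0.436, and 0.566 without 1-a and 2-c; the log2 change was -1.17 (SE 0.37, limma adjusted p = 0.101), and -0.68 without both. The 18 and 19 nt sequences as a class comprised 6 miRNAs, all with negative changes, and their median of -0.74 (-0.44 without both) lay below the -0.28 (0.09) of all miRNAs.

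The nutrient miRNAs were lower on average. Zma-miR399e, of the family that targets the phosphate regulator PHO2, had 19.5 to 40.9 RPM in control and 4.73, 23.8, 22.3, 22.8, 30.7 and 1.80 RPM under stress. Only 1-a and 2-c were below the controls, and the log2 change was -1.16 (SE 0.44, limma adjusted p = 0.225), or -0.27 without both. Bdi-miR827-3p, whose family targets SPX-domain transporters in rice, had 6.45 to 30.6 RPM in control and 0.739, 19.8, 14.4, 14.6, 4.39 and 0.599 RPM under stress, with a log2 change of -1.29 (-0.31 without both). All 5 nutrient miRNAs had negative changes, with a median of -1.16, and 0 were called; the median was -0.27 without 1-a and 2-c and -0.84 with median-ratio scaling.

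Among the developmental families 0 members were called. Bdi-miR166f, the early-starting form of the HD-ZIP III regulator miR166, had 1.85 to 11.5 RPM in control and 20.8, 5.87, 5.09, 2.81, 14.7 and 14.2 RPM under stress. Libraries 1-a, 2-b and 2-c exceeded every control, and the log2 change was 0.82 (SE 0.34, limma adjusted p = 0.225), or 0.37 without 1-a and 2-c. The 7 miR166 sequences that share the seed of Ath-miR166b summed to 4341 to 10733 RPM in control and 5243 to 8395 RPM under stress, with changes of -0.50 to 0.09. Ath-miR166b itself had a log2 change of 0.00 (SE 0.24, 95% interval -0.49 to 0.49), and Osa-miR166k had 2251 to 6868 RPM in control and 1828 to 5219 RPM under stress (-0.26, SE 0.31).

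Bdi-miR156h, a partner strand of miR156 (the guide targets SPL transcription factors), passed the fold criteria upwards through few libraries. It had 3.46 to 23.0 RPM in control and 23.2, 4.22, 70.2, 21.2, 6.86 and 9.29 RPM under stress. Only 1-c was clearly above the controls, with 1-a barely so, and the log2 change was 0.44 (SE 0.49, limma adjusted p = 0.708). The 7 miR156 entries had a median change of -0.21 (0.31 without both). Gma-miR167g, of the family that targets ARF6 and ARF8, had 2889 to 7694 RPM in control and 6109, 5858, 6465, 4361, 3902 and 1414 RPM under stress (log2 change 0.08, SE 0.30; 0.34 without both). Sbi-miR160f, which targets other auxin response factors, had 49.0 to 108.0 RPM in control and 19.5, 74.1, 112.1, 80.1, 33.8 and 8.24 RPM under stress (-0.94, limma adjusted p = 0.225), and -0.16 without 1-a and 2-c. The 16 auxin and NAC miRNAs had a median of -0.42, with 0 called, and 0.29 without both. Bdi-miR396a had a log2 change of -0.49 (SE 0.42) that turned to 0.56 without both, with 4538 and 3340 RPM in 1-b and 1-c above every control.

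Across the remaining lists no group had a called member. The 4 miR319 entries, which target TCP transcription factors, had a median of -0.13, -0.25 without 1-a and 2-c, and 0.24 with median-ratio scaling. The 19 repeat-like Triticeae miRNAs, whose precursors resemble inverted repeats, had a median of -0.27 and 16 negative changes with all libraries, but 0.10 and 11 positive changes without 1-a and 2-c, and 0.06 with median-ratio scaling. Among them Hvu-miR6191 had 11.1 to 19.2 RPM in control and 2.25 to 18.6 RPM under stress (log2 change -0.76, SE 0.29, limma adjusted p = 0.225; -0.15 without both). The 16 other miRNAs had a median of -0.82 and -0.07 without both. Hvu-miR5048a, the most abundant of those named among them, had 804.4 to 1514 RPM in control and 167.5, 1241, 1739, 1420, 884.4 and 72.5 RPM under stress. Its change of -1.09 (SE 0.44, limma adjusted p = 0.225) rested on 1-a and 2-c and was 0.09 without them. Osa-miR5071 behaved alike, from -1.21 to 0.19. Gma-miR5368 had 8.15 to 42.2 RPM in control and 2.85 to 21.6 RPM under stress (-0.87, and -0.46 without both). Bdi-miR5200, known in Brachypodium for targeting FT-like flowering genes, had 116.2 to 337.7 RPM in control and 37.9 to 248.9 RPM under stress, with a ratio of means of 0.662 that came to 0.881 without both.

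**Figure D4:**
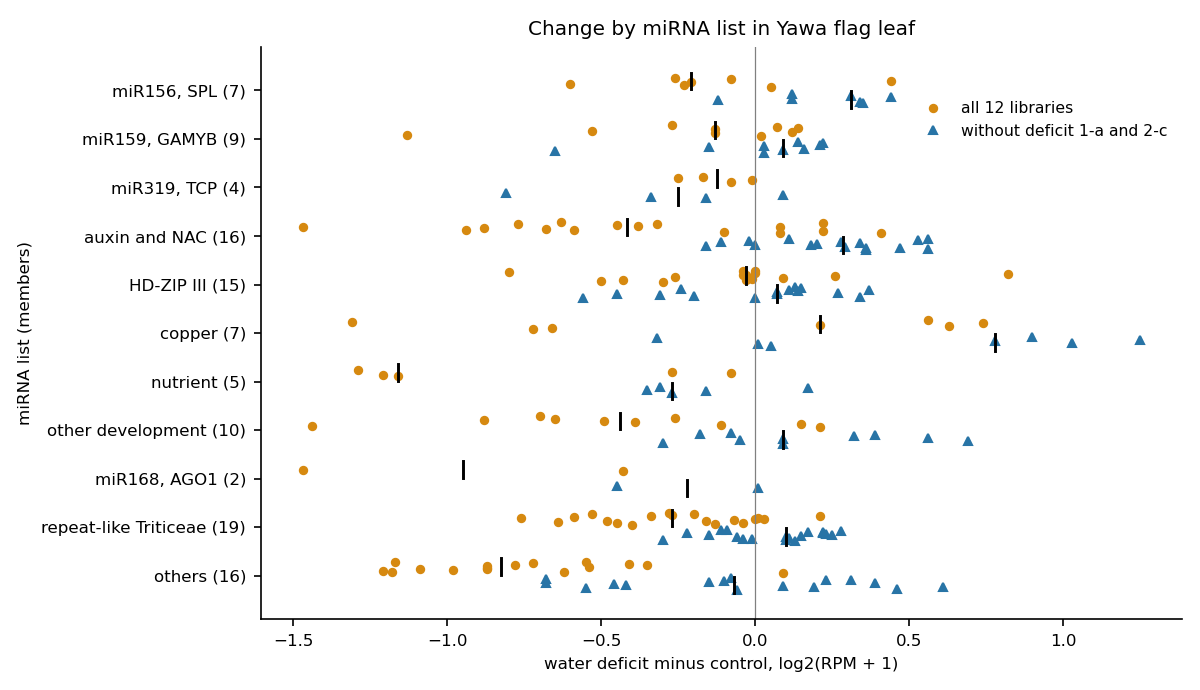
Water deficit minus control change in log2(RPM + 1) (x axis) of the 110 conserved miRNAs, grouped in lists by known target (y axis, number of members in brackets), from all 12 libraries (circles) and without stressed libraries 1-a and 2-c (triangles). Bars mark list medians. The copper list is the one with a positive median in both cases (0.21 and 0.78), and the nutrient list has the lowest median with all libraries (-1.16).

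Changes were not ordered by simple properties of the sequences. Over the 110 miRNAs, the Spearman rho of the change was 0.05 with length, 0.1 with GC content and -0.05 with mean level (0.13, -0.1 and 0.17 without 1-a and 2-c), given as a description across miRNAs that share libraries.

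The hairpin table gave a similar count. With limma on log2 CPM over the 48 flag leaf libraries, 0 hairpins had an adjusted p below 0.05 (percent called 0.0), and the lowest was 0.206. There were 17 at an unadjusted p below 0.05 (10.7%), 10 higher (6.29%) and 7 lower (4.4%). A fit on the 12 Yawa flag leaf libraries alone gave 5 at that threshold. The median change was -0.03, with 79 positive and 80 negative values. Without 1-a and 2-c there were 6 at an unadjusted p below 0.05, all higher, and a median of 0.07. With each library centred on its median the split became 51 positive and 108 negative, and 22 hairpins had an unadjusted p below 0.05, 2 higher and 20 lower. By the A, B and D labels of the bread wheat survey sequence to which the hairpins were aligned, the medians were -0.12 (47 hairpins), -0.04 (59) and 0.04 (53), and -0.01, 0.21 and 0.02 without 1-a and 2-c. Durum wheat has no D genome, so a D label names a bread wheat contig to which reads aligned and not a place in durum. The study kept every matching contig, so 1 signal can be listed under several labels. Ttu pre-miR059 (2DL) differed from Ttu pre-miR033 (2AL) by at most 0.03 log2 CPM in any of the 12 libraries.

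Ttu pre-miR126, on a 6BL contig (positions 2188 to 2304 of contig 4325858 in the bread wheat survey sequence), was the 1 hairpin (0.629%) whose groups did not overlap. The control libraries had -1.78, -1.99, -3.69, -1.19, -1.05 and -3.13 log2 CPM from 1-a to 2-c. The stressed libraries had 0.15, 0.25, -0.51, -0.66, -0.51 and 0.06 log2 CPM. All 6 stressed libraries were above all 6 controls, and 2 of the controls were at the lowest value of their library, the floor of the log2 scale. The change was 1.94 (SE 0.64, 95% interval 0.66 to 3.22, limma adjusted p = 0.206) and 1.78 without 1-a and 2-c. All 12 values are around or below 1 CPM, so they rest on few reads. The highest value in the 36 flag leaf libraries of the other genotypes was 0.60 and their median -1.39. A further hairpin did not overlap when 1-a and 2-c were left out (2, 1.26%): Ttu pre-miR053 (2DL), with -3.36 to -0.32 log2 CPM in control and -0.22 to 0.57 in the remaining 4 stressed libraries, had a change of 1.28 with all libraries (SE 0.59, limma adjusted p = 0.437).

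Ttu pre-miR133 (6DS) had a smaller difference at a like level. Its control libraries ran from -3.36 to 0.33 with a median of -1.12, and its stressed libraries from -1.15 to 0.99 with a median of -0.13. The groups overlapped, with 1-a and 2-c above every control, and the change was 1.26 (SE 0.43, limma adjusted p = 0.206), or 0.80 without both. Ttu pre-miR018 (1BL) changed by 0.91 and by 0.89 without both, with control values of -1.04 to 1.57 and stressed values of 0.85 to 1.92 log2 CPM.

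Some hairpins on different chromosome arms had nearly equal values over the libraries. Ttu pre-miR124 (6AS) had 3.55 to 4.49 log2 CPM in control and 5.54, 3.78, 3.88, 4.17, 4.99 and 5.21 under stress. Libraries 1-a, 2-b and 2-c were above all controls and the other 3 within their range. Its change was 0.64 (SE 0.22, limma adjusted p = 0.206) and 0.25 without 1-a and 2-c. Ttu pre-miR108 (5AS) and Ttu pre-miR021 (1BS) differed from it by at most 0.08 and 0.16 in any of the 12 libraries. Whether the same reads were placed on these 3 hairpins was not tested, and they are not taken as separate evidence. Ttu pre-miR152 (7DL) lay lower, at 2.92 to 3.88 in control and 3.23 to 5.12 under stress, and changed by 0.66 (0.24 without both). Ttu pre-miR033, Ttu pre-miR036 and Ttu pre-miR045 (2AL, 2AL and 2BL) had equal values to within 0.002, with a change of 0.59 (SE 0.58), and counted as 1 measurement.

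Of the 10 hairpins with the smallest p-values, 3 had lower means, and in each of them the lowest values were those of 1-a and 2-c. Ttu pre-miR113 (5BL), with the lowest p-value, had 3.59 to 4.70 log2 CPM in control and 2.5, 3.45, 3.74, 3.79, 3.54 and 2.27 under stress. Libraries 1-a and 2-c were more than 1 unit below every control, 1-b and 2-b were slightly below, and 1-c and 2-a were within the range. The change was -0.76 (SE 0.24, limma adjusted p = 0.206), or -0.34 without both. Ttu pre-miR051 (2BS) had 1.51 to 2.23 in control, and -2.35 and -1.82 in 1-a and 2-c beside 0.97 to 2.15 in the other stressed libraries, a change of -1.47 that came to -0.20 without both. Ttu pre-miR101 (4DL) changed by -1.44, with -0.77 and -1.08 in these libraries beside 2.19 to 3.76 in control, and by -0.07 without both. The low values of 1-a and 2-c were below the lowest of the 36 other flag leaf libraries for Ttu pre-miR051 (0.16) and Ttu pre-miR101 (0.20).

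The mature sequences of 4 further named hairpins are shown, because the study predicted targets for them.
Ttu-miR007: tGTAATAAactagtcttcaga
Ttu-miR008: tAAGGAAAagaaggagaaacg
Ttu-miR038: tTTGTGATttgtgaatgccacgtg
Ttu-miR109: gAGAGCTActcaaatgttcaa
Ttu pre-miR007 (1AS) was the most abundant hairpin, with 8.82 to 10.16 log2 CPM in control and 8.25 to 9.86 under stress (change -0.25, SE 0.27, limma adjusted p = 0.867; 0.07 without both). Ttu pre-miR008 (1AS) had 0.70 to 2.42 in control and -3.94, 1.55, 1.94, 1.39, -0.22 and -3.40 under stress. Its values in 1-a and 2-c were at the floor of the log2 scale, shared with other hairpins (26 and 41 in all at the floor). The size of its change, -1.74 (SE 0.79, limma adjusted p = 0.437), thus depends on where the floor lies. The change was -0.12 without both. Ttu pre-miR038 (2AL) had 6.55 to 7.02 in control and 5.62, 6.53, 6.62, 6.83, 6.87 and 5.19 under stress (-0.52, and -0.09 without both). Ttu pre-miR109 (5AS) had -0.56 to -0.06 in control and -1.82 to -0.01 under stress, a change of -0.73 (SE 0.50, limma adjusted p = 0.711), or -0.38 without both. It lies within the contig interval of Ttu pre-miR108, whose change was 0.59. Ttu pre-miR079 (3B), another abundant hairpin, did not move in the means (change -0.04, 95% interval -0.41 to 0.33).

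**Figure D5:**
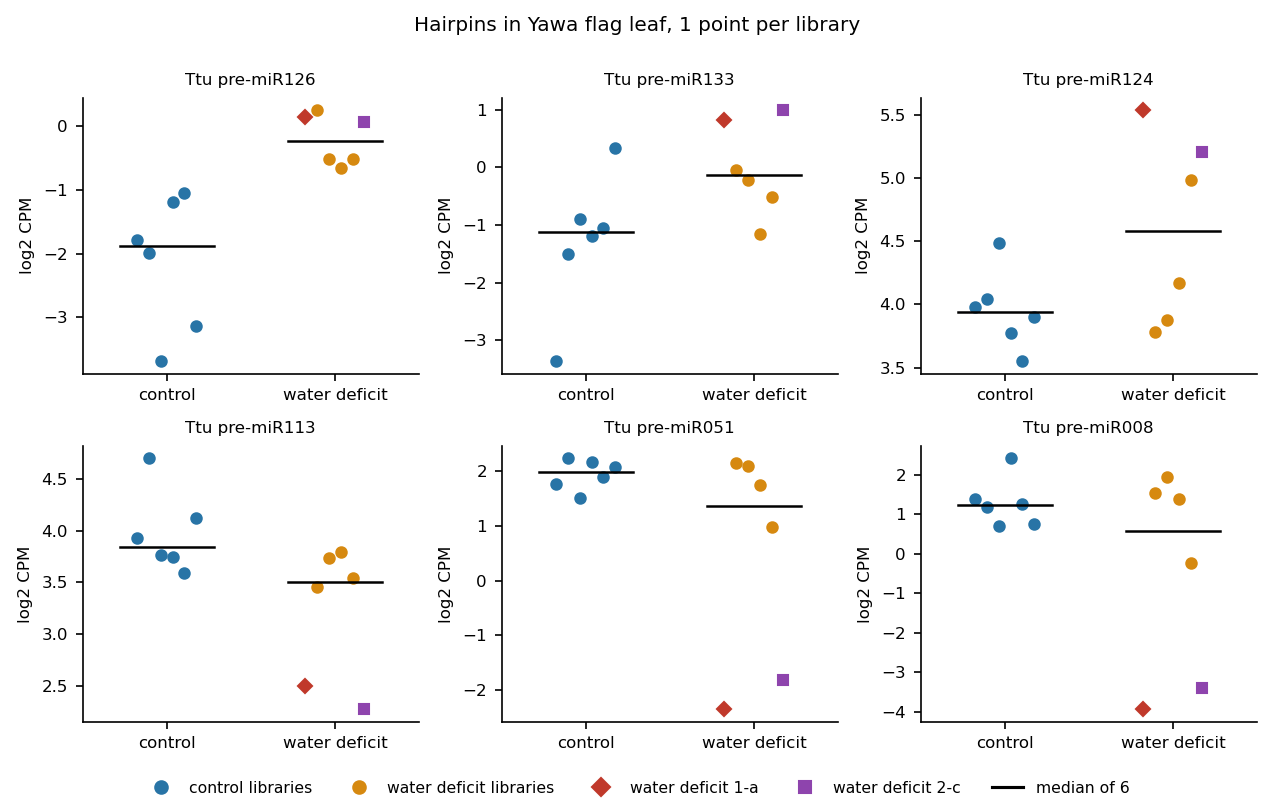
Log2 CPM of 6 hairpins in the 6 control and 6 water deficit libraries of Yawa flag leaf, 1 point per library, with lines at the group medians and stressed libraries 1-a (diamond) and 2-c (square) marked. Ttu pre-miR126 is the hairpin whose groups do not overlap, and for Ttu pre-miR113, Ttu pre-miR051 and Ttu pre-miR008 the lowest points are 1-a and 2-c.

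The response was then set beside the growing seasons. Within a season 3 plants stand against 3, each season holds 1 of the libraries that stood apart, and a permutation test cannot go below p = 0.1. The median change of the 110 miRNAs was -0.13 in season 1 and -0.48 in season 2. No miRNA differed in response between the seasons at an adjusted p below 0.05 (limma, 0 of 110, 0.0%; 5 at an unadjusted p below 0.05, 4.55%), nor did a hairpin (0; 4 at an unadjusted p below 0.05, 2.52%). Without stressed library 1-a 7 miRNAs differed between the seasons, all with the lower response in season 2, which still held 2-c. Without both 1-a and 2-c 0 miRNAs differed (limma, lowest adjusted p = 0.208). Zma-miR159a changed by -1.10 and -1.17 in seasons 1 and 2, Bdi-miR5054 by -1.12 and -1.21, and Bdi-miR397b by 0.57 and 0.54. Gma-miR408d changed by 0.98 and 0.50. Bdi-miR827-3p changed by -0.16 and -2.41, and Ttu pre-miR126 by 2.45 and 1.42.

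Tjilkuri, which the labels call sensitive, and Tamaroi, the other tolerant genotype, were treated in the same way with 12 flag leaf libraries each. No miRNA differed between the Yawa and the Tjilkuri response at an adjusted p below 0.05 (limma, 0 of 110, 0.0%). There were 11 at an unadjusted p below 0.05 (10.0%), all with the lower response in Yawa, and without 1-a and 2-c there were 3, all with the higher response in Yawa. With median-ratio scaling there were 12, 6 in each direction. Against Tamaroi 0 were called and 13 had an unadjusted p below 0.05 (11.8%), all lower in Yawa, and 1, higher, without both libraries. With median-ratio scaling there were 12, 3 higher and 9 lower. The Yawa response of Zma-miR528a was 2.08 lower than that of Tjilkuri on the log2 scale (unadjusted p = 0.0474), and that of Gma-miR408d was 0.61 lower (unadjusted p = 0.65). Bdi-miR397b had a Yawa response 0.95 below that of Tjilkuri and 0.57 above that of Tamaroi, neither past the threshold. Among hairpins 0 differed from either genotype, with 7 (4.4%; 3 higher, 1.89%, and 4 lower, 2.52%) and 10 (6.29%; 5 in each direction, 3.14%) at an unadjusted p below 0.05. Ttu pre-miR126 had a response 1.71 above that of Tjilkuri and 1.90 above that of Tamaroi, not called.

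The leaf response was last set beside that of the developing heads, which were taken from the same plants. With all 96 libraries and the plant as a random block, 2 of 110 differed in response between flag leaf and head at an adjusted p below 0.05 (1.82%), and 23 at an unadjusted p below 0.05 (20.9%), all with the higher response in the leaf. That direction depended on the scaling: with median-ratio scaling 11 had an unadjusted p below 0.05, 3 with the higher and 8 with the lower response in the leaf. The called miRNAs were Zma-miR167a (difference 1.56, SE 0.43, limma adjusted p = 0.0301) and Zma-miR167b (2.01, SE 0.54, adjusted p = 0.0301). Zma-miR167b is a guide of the family that targets ARF6 and ARF8, and Zma-miR167a is a partner strand of that family. Zma-miR167b had 40.4 to 177.4 RPM in control leaf and 12.4 to 112.7 RPM in stressed leaf, a leaf change of -0.10 beside -2.11 in the head. Zma-miR167a had at most 0.917 RPM in any of the 12 leaf libraries, from at most 6 reads, so its leaf response is near the limit of detection. The count depended on the libraries that stood apart: it was 42 without leaf libraries 1-a and 2-c. It was 0 when the heads of the same plants were left out too, and 0 with median-ratio scaling. With those heads left out, 27 had an unadjusted p below 0.05, all with the higher response in the leaf. All these fits kept the low head of stressed plant 2-b. Its median deviation was -1.58, beside -1.51 and -1.73 for heads 1-a and 2-c. What head 2-b adds to the leaf and head difference was not tested. Leaving out 1 leaf library at a time gave 9 without control 1-b, 7 without stressed 2-c, 4 without control 2-c and 0 or 2 otherwise. For Gma-miR408d the leaf change was 0.74 and the head change -1.06 (difference 1.79), and for Bdi-miR397b 0.56 and -0.88 (difference 1.43), neither called. Among hairpins 0 differed between the organs, with 16 at an unadjusted p below 0.05 (10.1%), all higher in the leaf as deposited and, with median centring, 16 that were all lower.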

How the data were processed

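Small RNA of 15 to 40 nt was gel-purified, made into 1 indexed library per sample and sequenced by the authors on an Illumina HiSeq2500. For the conserved miRNAs the authors matched reads to known plant miRNAs allowing mismatches and deposited values in RPM, that is reads per 1000000 reads of the library. For the hairpins they used assembled reads as 1 of several filters, to discard fragments of longer RNA. The short reads that passed were mapped to the bread wheat chromosome survey sequence, and log2 CPM was deposited. Both were used as deposited, through columns matched to the labels. RPM is not a count, so log2(RPM + 1) and log2 CPM were fitted with limma 3.58.1 in R 4.3.3 (trended variances, 8 group means over 48 flag leaf libraries, two-sided, Benjamini-Hochberg over all miRNAs or all hairpins, threshold 0.05). Differences between organs used all 96 libraries with duplicateCorrelation (statmod 1.5.0) for the plant. Depth was estimated from the RPM steps that 1 read makes in each library, and it covers counting only. RPM values are relative, and fewer cells of a type cannot be told apart from less RNA per cell. The fits were tested on simulated data with independent noise, which did not include libraries that deviate together or a larger spread under stress. Alternatives were pseudocounts, a minimum mean, median-ratio scaling, season, a replicate block, the 12 Yawa flag leaf libraries alone and each library left out. Leaving out both libraries that stood apart was added after seeing the data.

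The members and lists were chosen with earlier results of these data known. Named miRNAs are the 10 with the smallest p, the 5 largest rises and falls past the fold criteria, the 5 most abundant, the 7 copper miRNAs and those the study took to quantitative PCR. Named hairpins are the 10 with the smallest p, the 5 most abundant and Ttu pre-miR007, 008, 038 and 109, for whose miRNAs the study predicted targets. Gma-miR393h, Osa-miR1432, Osa-miR396f, Sbi-miR168, Ath-miR319b, Osa-miR5077, Bdi-miR159-5p, Ttu pre-miR053, Ttu pre-miR059, Zma-miR167a and Zma-miR167b were named after their values were seen.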

Additional observations from a re-analysis of the deposited data

Results flagged for a closer look

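Dixon's rule for a value far from the other 5 of its group was applied to 94 groups of 6 libraries, where chance marks about 1 in 20, and it marked 5. In water deficit library 2-c, Gma-miR167g was at 1414 RPM, below the 3902 to 6465 RPM of the other 5 stressed libraries, and Ath-miR167d was at 18.1 RPM beside 59.8 to 97.5 RPM. In control library 1-b, Ttu pre-miR033, Ttu pre-miR036 and Ttu pre-miR045 were each at 8.49 log2 CPM beside 6.39 to 7.17 in the other controls, and since their values are equal they make 1 observation. The response of Zma-miR167a and of Zma-miR167b was higher in the flag leaf than in the head by 1.56 and 2.01 on the log2 scale (limma, Benjamini-Hochberg adjusted p = 0.0301 each). No explanation of these values was tested.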

How the results depend on the processing

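With all 12 libraries 0 conserved miRNAs and 0 hairpins were called by limma. Calls appeared with a pseudocount of 0.1 RPM (1), with all 96 libraries and the plant as a random block (1), with median-ratio scaling (3: Zma-miR159a, Osa-miR444b and Bdi-miR168) and, for hairpins, with median centring (2). With limma on the 12 Yawa flag leaf libraries alone 0 miRNAs and 0 hairpins were called. The lowest adjusted p was then 0.673 for miRNAs and 0.306 for hairpins, with 2 and 5 at an unadjusted p below 0.05. Leaving out 1 library at a time gave 0 to 6 called miRNAs. For the season difference the count was then 0 to 7, and it was 0 without both 1-a and 2-c. For the leaf and head difference the count with 1 library left out was 0 to 9. That last count, 2 with all libraries, was 0 with a pseudocount of 5 RPM, 0 with median-ratio scaling, 42 without 1-a and 2-c and 0 without their heads too. The fold criteria, 17 miRNAs with all libraries, gave 29 with geometric means, 5 at a fold above 2, 4 at 50 RPM, 27 with median-ratio scaling, 34 in season 2, 11 without 1-a and 2-c, and 13 to 28 with 1 library left out. In none of these cases was the cause tested.

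The difference in total RPM, -946, was 1119.7 between medians, 610 in season 1, 3775 without 1-a and 2-c and -2911 to 2369 with 1 library left out. The difference in depth, -0.02 M reads, was 0.11 between medians, 1.71 in season 2 and -0.77 to 0.73 with 1 library left out.

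Named changes turned sign as follows, on the log2 scale. With median-ratio scaling Tae-miR159b was 0.29 and Osa-miR166k 0.15. In season 1 Bdi-miR396a was 0.21, Ath-miR166b -0.04 and Ttu pre-miR007 0.11. In season 2 Bdi-miR156h was -0.15, Gma-miR167g -0.40, Osa-miR166k 0.14, Sbi-miR397 -0.00, Ath-miR167d -0.39 and Ttu pre-miR079 0.13. Without 1-a and 2-c Hvu-miR5048a was 0.09, Tae-miR159b 0.09, Bdi-miR396a 0.56, Zma-miR398b 0.01, Zma-miR528a 0.05, Osa-miR5071 0.19 and Ttu pre-miR007 0.07, and with median-ratio scaling as well Hvu-miR5048a was 0.04, Tae-miR159b 0.04, Bdi-miR396a 0.51, Zma-miR528a 0.00 and Osa-miR5071 0.15. With 1 library left out Tae-miR159b ran from -0.24 to 0.01, Gma-miR167g from -0.04 to 0.40, Bdi-miR396a from -0.85 to 0.02, Ath-miR166b from -0.09 to 0.10 and Ttu pre-miR079 from -0.09 to 0.04.

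The replicate block left 0 calls for miRNAs and 0 for hairpins, in the Yawa response and in its differences from Tjilkuri and Tamaroi. It was not fitted for the season difference or for the leaf and head difference. Libraries of control and stress with 1 label deviated together at r from -0.29 to 0.56 for miRNAs and -0.35 to 0.13 for hairpins. Over the miRNAs the same label was the best match for 1-b (0.36) and 2-a (0.56) and not for the others. Over the hairpins it was the best match for none. Whether a label marks anything shared was not tested. The planned count test on recovered reads was not run, so no result here rests on a count model. Read numbers given in the text were recovered from the RPM steps and serve as description only.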
